A study of Oncorhynchus mykiss with 6 samples.

Results

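The miR-200 family of the rainbow trout (Oncorhynchus mykiss) liver was followed through 6 small RNA libraries, 3 from control fish and 3 from fish fasted for 4 days. Its members are all rows of the deposited miRNA table whose names hold miR-200, miR-141, miR-429 or miR-8, in every letter, arm, length variant and fish prefix. This gave 12 of the 1427 rows. None of the 12 carries the name miR-8, which is the family's name in insects. In both groups the fish were juvenile and wild type, and the labels give Walbaum as the strain. The labels do not describe the feeding of the controls, and do not state whether each library is from its own fish. The p-values therefore measure the spread between libraries, which may be technical. Series of values below run through control replicates 3, 4 and 6, and then fasted replicates 3, 4 and 5.

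In mammals, miR-200b, miR-200a and miR-429 are made from a common primary transcript, and miR-200c and miR-141 from another. The family is known for holding cells in the epithelial state by repressing the transcription factors ZEB1 and ZEB2. In mammalian liver it is better known from bile duct epithelium than from hepatocytes. In Drosophila, miR-8 acts on insulin signalling in the fat body by repressing u-shaped, and mammalian miR-200 represses the related gene FOG2.

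The members are short variations on a few sequences, and these decide which targets each can pair with and how well reads can be told apart. They are shown 5′ to 3′ as deposited, with T for U and with the seed, bases 2 to 8, in capitals. First come the members with enough counts for a test, and then the rows named miR-200c and miR-141.
fru-miR-200a_R-1: tAACACTGtctggtaacgatg
fru-miR-200b_R+1: tAATACTGcctggtaatgatgat
dre-miR-429a: tAATACTGtctggtaatgccgt
dre-miR-200c-3p_R+1_1ss22CG: tAATACTGcctggtaatgatgga
dre-miR-141-3p_R+1_1ss22CA: tAACACTGtctggtaacgatgaa

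The seeds split these rows into the classes known from other vertebrates. AATACTG was the seed of 4 member rows, those of miR-200b, miR-429a and miR-200c, and AACACTG that of 3, those of miR-200a and miR-141. Positions are counted from 1 at the 5′ end. From miR-200a to miR-200b the first 21 bases differ at 3 places, C4T in the seed and T9C and C17T behind it. From miR-200b to miR-429a the first 22 bases differ at 4 places, C9T, A19C, T20C and A22T, all behind the seed. The row named miR-141 holds all 21 bases of the miR-200a row and 2 more. The row named miR-200c shares the first 21 bases of the miR-200b row and differs only by A22G and T23A. These pairs are thus distinguished by their last 2 bases alone. By the suffixes R+1 and 1ss22CA or 1ss22CG, these are a substitution at base 22 and an added base against the named miRNAs. So no base that matches miR-141 or miR-200c sets these rows apart from miR-200a or miR-200b. No trout genome was used, so whether the rows of a pair come from separate genes was not tested.

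The passenger strands were shown by the 5p rows, which carry the seed ATCTTAC in all 4 cases. Those of miR-200b and of the most abundant miR-200a row are printed for comparison with the 3p sequences above.
ssa-miR-200b-5p: cATCTTACctgacagtgctgga
ssa-miR-200a-2-5p: cATCTTACgaggcagcattgga

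The 6 libraries held between 737686 and 4203708 counts in the table. The detection floor, set at 3 counts, lay between 0.714 and 4.07 CPM, counts scaled to a common depth. This floor was scaled by library totals alone, while the levels below are also corrected for composition. The hepatocyte miRNAs, with miR-122 as the most abundant row, held 42.3 to 49.5% of the counts in every library. Fasted replicate 3 stood apart in composition. Its table counts made up 15.1% of its mappable reads, against 34.9 to 61.0% in the others, and its TMM factor, which corrects for composition, was 1.64 against 0.762 to 1.21.

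In these livers the family was a minor component led by miR-200a, a miRNA of the AACACTG class. Levels are in CPM after TMM scaling, and the rows of 21 to 23 nt are compared without a length correction. miR-200a stood at 1164, 919.9 and 2038 CPM in the controls and at 1008, 1090.4 and 943 CPM after fasting. Control replicate 6 was the highest, and the 3 fasted libraries lay within the control range. The row ranked 58th of all 1427 rows by mean share, and between 38th and 60th in single libraries.

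miR-200b, of the AATACTG class, stood at 376, 248 and 435 CPM in the controls and at 470.2, 362 and 351 CPM after fasting. Control replicate 4 was the lowest and fasted replicate 3 the highest, and the groups overlapped. miR-429a, which shares the seed of miR-200b, had 20.8, 13.4 and 15.7 CPM in the controls and 31.4, 24.9 and 14.6 CPM in the fasted libraries. Fasted replicates 3 and 4 lay above all controls, while fasted replicate 5 lay between control replicates 4 and 6. The order miR-200a, miR-200b, miR-429a held in each of the 6 libraries, with no overlap between the levels of neighbouring members.

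**Figure D1:**
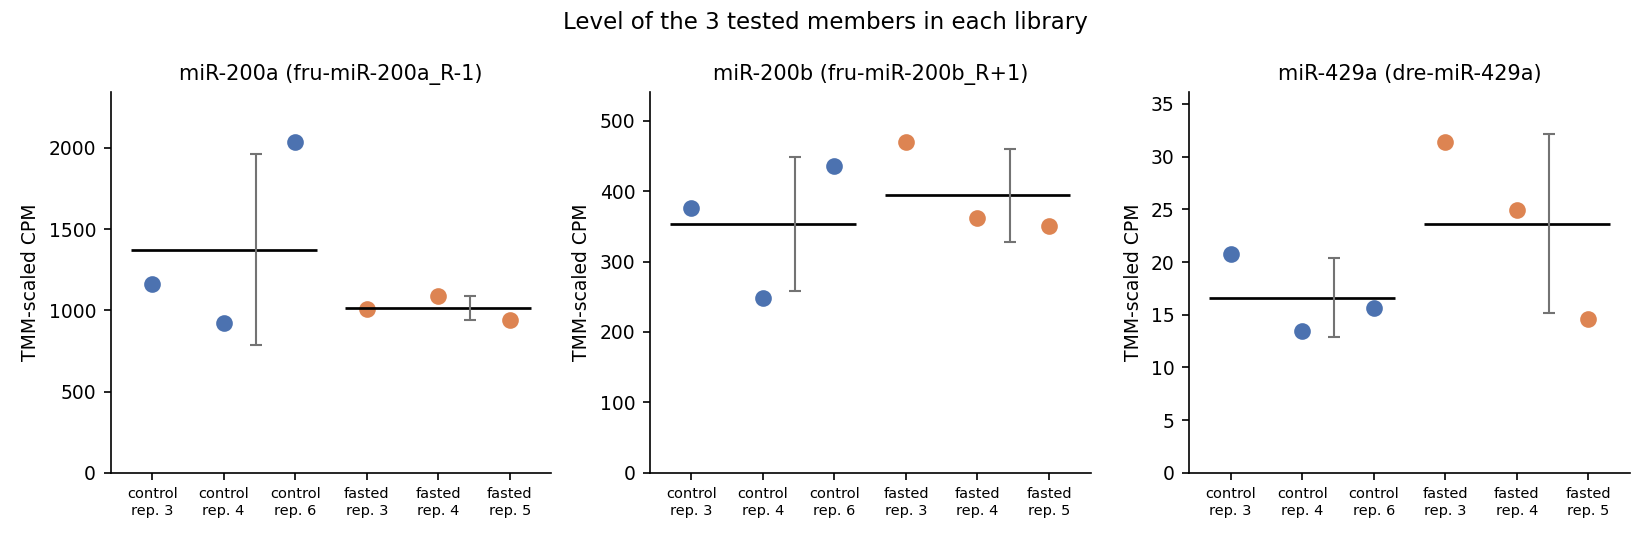
TMM-scaled CPM (vertical axes, linear from 0) of the 3 tested members in each library. Points are libraries, black lines group means and grey bars 1 SD (n = 3). For miR-200a, control replicate 6 stands at 2038 CPM and the other 5 libraries lie between 919.9 and 1164 CPM.

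Of the 12 members, 3 had enough counts to be tested, and they held 99.4% of the family's counts. Each passed the filter on low counts in both groups, the smallest count being 11. At an adjusted p of 0.05, edgeR's quasi-likelihood test called 0 of the 3. Among all 309 rows tested it called 0.0%. An unadjusted p under 0.05 was reached by 0 of the 3 and by 8.41% of all rows. DESeq2 called 0 of the 3 and 1.29% of all rows, and limma-voom called 0 rows. The groups overlapped for each of the 3, while 8.74% of all rows had every fasted library above every control and another 8.74% had every fasted library below.

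For miR-200a the control mean was 1374 ± 588 CPM and the fasted mean 1014 ± 73.9 CPM (SD, n = 3). The log2 fold change, fasted minus control, was -0.44 (SE 0.38, 95% interval -1.31 to 0.43; edgeR adjusted p = 0.724). This value rested on control replicate 6: without it the log2 fold change was -0.031 (edgeR adjusted p = 0.995), beside -0.66 to -0.26 when any other library was left out. Scaled by library totals alone it was 0.17, but this moved the median of all rows from 0.01 to 0.59, so miR-200a lay below the median of all rows under both. With the replicate number as a block it was 0.018 and lay above the median of all rows, which was then -0.097. Control replicate 6 and fasted replicate 5 share their numbers with no other library. The block fit thus took the difference from replicates 3 and 4 of each group alone, again without control replicate 6. The direction of miR-200a thus changed with the settings.

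For miR-200b the means were 353 ± 95.6 and 394 ± 66.0 CPM, and the log2 fold change was 0.16 (SE 0.35, 95% interval -0.64 to 0.96; edgeR adjusted p = 0.914). Without control replicate 4 it was -0.039. Without fasted replicate 3 it was 0.064, and without control replicate 6 it was 0.34. For miR-429a they were 16.6 ± 3.77 and 23.6 ± 8.49 CPM, and the log2 fold change was 0.48 (SE 0.42, 95% interval -0.47 to 1.44; edgeR adjusted p = 0.724). It stayed above 0 under each of the 16 alternative settings and was called under none of them. It was lowest, at 0.31, without fasted replicate 3, and was 0.87 without fasted replicate 5 and 1.10 when scaled by library totals alone, where miR-200b was at 0.80. The intervals include changes of more than 1 log2 unit in miR-200a downwards and in miR-429a upwards.

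**Figure D2:**
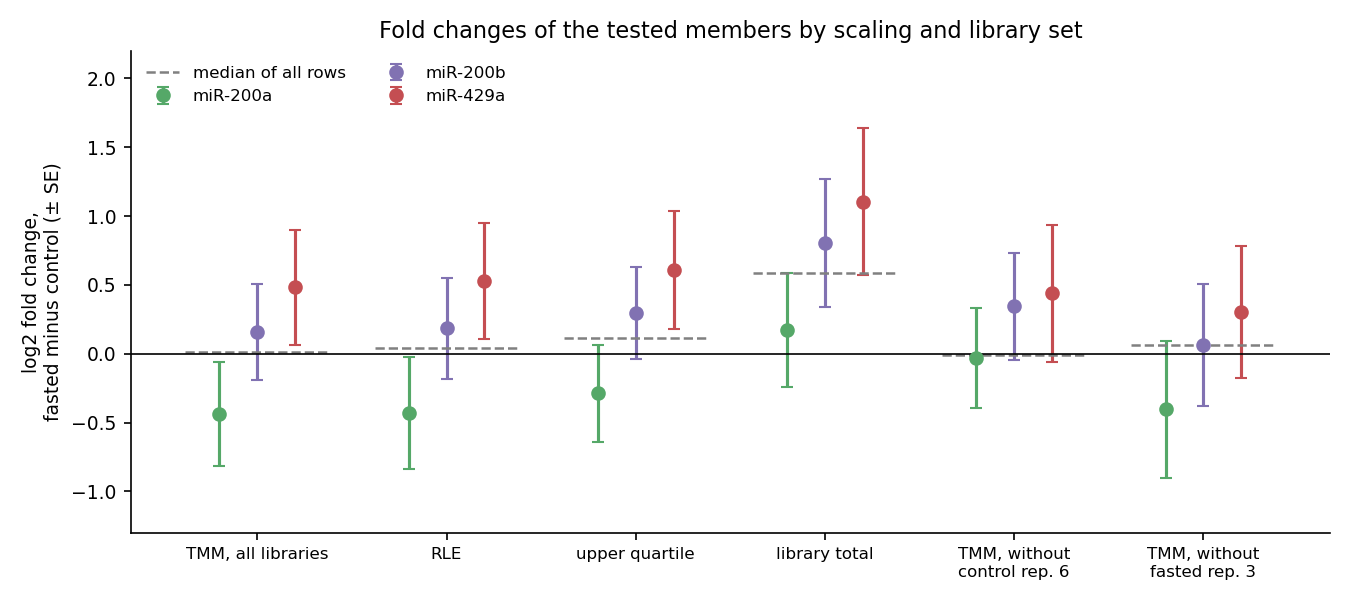
Log2 fold change of miR-200a, miR-200b and miR-429a, fasted minus control, with 1 SE, under 4 scalings and without control replicate 6 or fasted replicate 3. Dashed lines give the median of all rows tested in that fit. The miR-200a point moves from -0.44 to -0.031 when control replicate 6 is left out, and all 3 points move up together with the median when only library totals are used.

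The balance between the members does not depend on any library scaling. The ratio of miR-200a to miR-200b counts was 3.10, 3.71 and 4.68 in the controls and 2.14, 3.02 and 2.69 after fasting. Each fasted library thus lay below each control library, although control replicate 3 and fasted replicate 4 differed by little. The group means were 3.83 ± 0.799 and 2.62 ± 0.440 (SD, n = 3), a difference of -0.54 (SE 0.23) in mean log2 ratio. Without control replicate 6 this difference was -0.39, without fasted replicate 3 it was -0.41, and in the other libraries left out it ran from -0.69 to -0.56. This ratio was looked at after the values were known and has no test. Of all 47586 ratios between tested rows, 15.3% did not overlap between the groups, so a ratio of this kind is common in these libraries.

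The ratios that involve miR-429a overlapped. Against miR-200b, its seed mate, miR-429a stood at 0.0553, 0.0541 and 0.0360 in the controls and at 0.0668, 0.0689 and 0.0416 in the fasted libraries. Against miR-200a it stood at 0.0178, 0.0146 and 0.00769 in the controls and at 0.0312, 0.0228 and 0.0155 in the fasted libraries. The lowest value of both ratios was in control replicate 6.

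As shares of the family's own counts, miR-200a made up 77.7% ± 3.61 in control and 70.4% ± 3.68 in fasted liver. miR-200b made up 20.7% ± 3.28 and 27.3% ± 3.34, and miR-429a 1.03% ± 0.361 and 1.62% ± 0.484 (SD, n = 3). The other 9 members together stayed under 1% of the family in every library.

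Summed by seed, the AACACTG rows came to 1376 ± 591 CPM in the controls and 1015 ± 73.3 CPM after fasting. The AATACTG rows came to 372 ± 99.9 and 419 ± 75.04 CPM. All 12 members together had 1754 ± 678 and 1441 ± 107 CPM, with 2505 CPM in control replicate 6 and 1186 to 1570.1 CPM in the other libraries. The direction of the family sum depended on the scaling and on that library, and that of the AACACTG sum on the scaling. With all libraries, the AATACTG sum was higher after fasting both in CPM and as a share. It was 397, 262 and 457 CPM in the controls and 505, 387 and 366 CPM after fasting, so the groups overlapped. Its main row, miR-200b, turned to a log2 fold change of -0.039 without control replicate 4, where the sum was lowest. The AATACTG sum itself was not recomputed with single libraries left out. In mean log2 CPM the family differed by -0.22, fasted minus control, and by 0.083 without control replicate 6. As a share of all table counts it made up 0.143% ± 0.0461 in the controls and 0.181% ± 0.0609 after fasting (SD, n = 3), a difference of 0.34 on the log2 scale. The AACACTG rows differed by -0.36 in CPM and by 0.20 as a share, and the AATACTG rows by 0.20 and 0.75. Scaling by library totals alone moved the median log2 fold change of all rows from 0.012 to 0.59. The family and AACACTG sums thus lay below that median under both scalings, and the AATACTG sum above it. For any level in bulk liver, fewer cells of a type and less RNA per cell cannot be told apart.

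**Figure D3:**
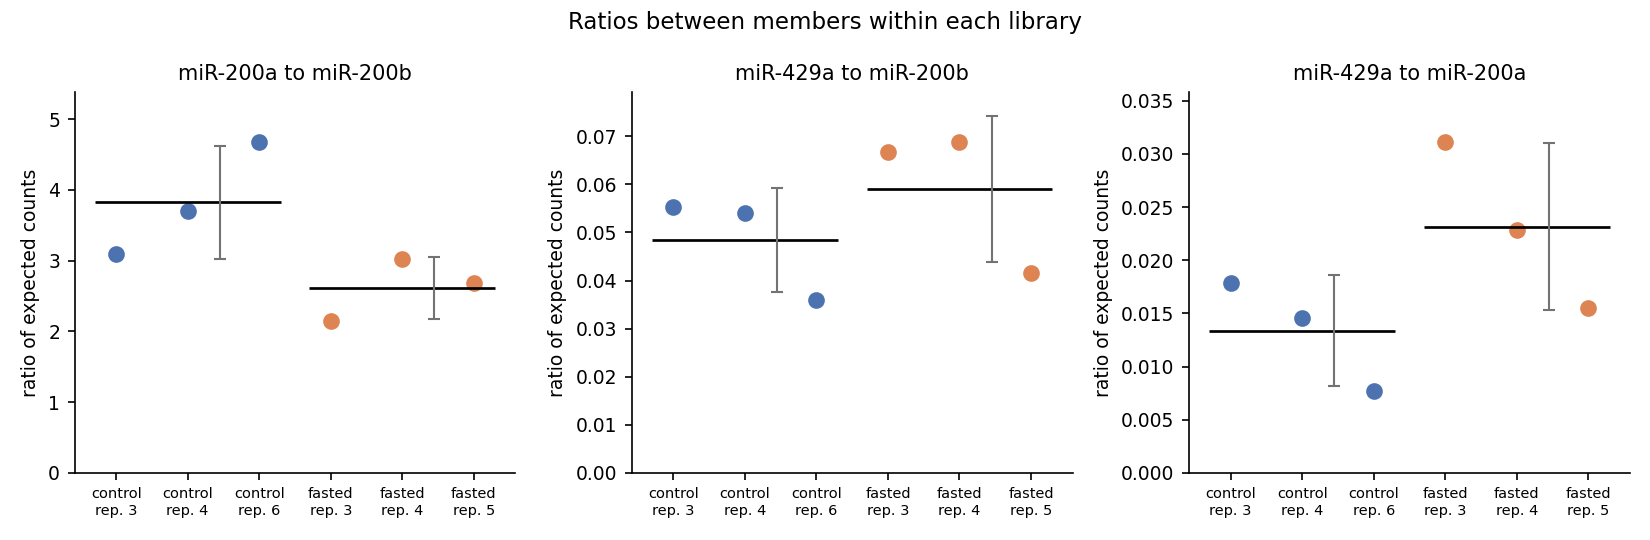
Ratios of expected counts between the tested members within each library, on linear axes from 0, with group means (black) and 1 SD (grey, n = 3). The ratio of miR-200a to miR-200b lies between 3.10 and 4.68 in the controls and between 2.14 and 3.02 in the fasted libraries, while both ratios with miR-429a overlap.

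The rows named miR-141 and miR-200c had most of their few counts in 1 library. In mammals the miRNAs of these names come from the family's other cluster, but these rows were not traced to such a cluster. Each had 22 counts in all and did not pass the filter on low counts. Without that filter edgeR gave log2 fold changes of -0.87 (SE 1.04) for miR-141 and -1.64 (SE 1.12) for miR-200c, with an adjusted p of 0.779 for both. The miR-141 row had 0, 0 and 17 counts in the controls and 1, 1 and 3 after fasting. The miR-200c row had 1, 0 and 18 counts in the controls and 2, 1 and 0 after fasting. Control replicate 6 thus held 77.3% and 81.8% of their counts, while it held 32.9% of all counts in the table.

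Control replicates 3 and 6 had nearly equal totals in the table, 4203708 and 4190377 counts, from 9335395 and 6874355 mappable reads. In control replicate 6 the miR-141 row took 0.261% of the counts it forms together with the miR-200a row (95% Clopper-Pearson interval 0.152 to 0.417%). In control replicate 3 it took 0 of 4314, for which the floor of 3 counts allows a share of up to 0.0695% and the same kind of interval reaches 0.0855%. In fasted replicate 5 it took 0.221%, or 3 of 1360 counts (0.0455 to 0.643%). The miR-200c row took 1.28% of its counts together with the miR-200b row in control replicate 6 (0.760 to 2.01%) and 0.0718% in control replicate 3 (0.00182 to 0.399%). In both pairs control replicate 6 lay above control replicate 3 by more than counting error. In the fasted libraries and control replicate 4 the intervals overlapped those of control replicate 6 for miR-141, as did all but that of fasted replicate 5 for miR-200c. These intervals cover counting error only, since reads without molecular identifiers are not independent molecules.

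Other rows of this size were also found mostly in 1 library. Among the 162 rows with 15 to 40 counts, 2.47% had at least 75% of them in control replicate 6, and the same 2.47% had as many in control replicate 3. Both limits were set after the values were seen, the miR-141 and miR-200c rows are among those counted, and the other 4 libraries were not counted, so this is a description only. Those of control replicate 6 were 4 rows, dre-miR-200c-3p_R+1_1ss22CG, dre-miR-141-3p_R+1_1ss22CA, dre-miR-363-3p_R+1 with 15 of its 15 counts, and dre-miR-34b_L-1R+1_1ss11TA with 25 of 25.

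**Figure D4:**
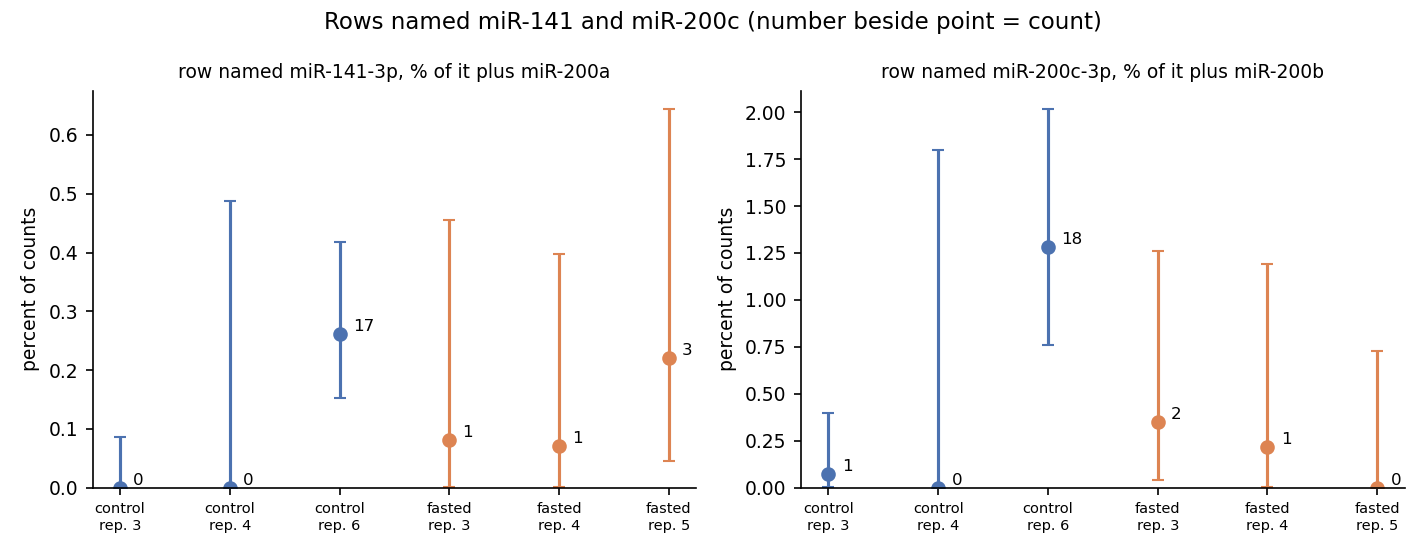
Share of the row named miR-141 in its sum with the miR-200a row (left) and of the row named miR-200c in its sum with the miR-200b row (right), in percent, with 95% Clopper-Pearson intervals. Numbers beside the points are counts, and control replicate 6 has 17 and 18 of them.

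Outside the family by name, 1 predicted small RNA carried a family seed. It is shown because it differs from miR-200a by 1 base, C17T, over their common 21 bases.
PC-3p-27049_15: tAACACTGtctggtaatgatgtca
It had 6, 2 and 19 counts in the controls and 3, 0 and 2 after fasting. It too was highest in control replicate 6, and it did not pass the filter on low counts.

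The family was read almost wholly from its 3p arms, the strands with the seeds AACACTG and AATACTG. The 3 rows named miR-200a 5p made up 34 of 15584 miR-200a counts, or 0.218% (95% Clopper-Pearson interval 0.151 to 0.305%). The miR-200b 5p row made up 42 of 4567 miR-200b counts, or 0.920% (0.664 to 1.24%) over the 6 libraries together. In single libraries the interval of miR-200b lay above that of miR-200a only in control replicates 3 and 6, and the intervals overlapped in the other 4. In single libraries the 5p share of miR-200a was lowest in control replicate 6, at 0.0768%, and highest in fasted replicate 5, at 0.513%. For miR-200b it was highest in control replicate 3, at 1.28%, and in control replicate 4 the 5p row held only 0.5 expected counts, which is under the floor. The mean 5p level was 2.98 CPM for miR-200a and 3.23 CPM for miR-200b. Neither reached the 10 CPM set for a test of arm ratios between the groups, nor the alternative of 5 CPM, so no such test was made.

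The 5p rows of miR-200a came in 3 sequences. From ssa-miR-200a-2-5p, with 20 counts, the row ssa-miR-200a-1-5p_2ss16TC17TA with 6 counts differs by G9A. The row ssa-miR-200a-3-5p, with 8 counts, differs by C13T, C16T and A17T. The salmon names number them separately, and each had counts above 0 in at least 3 of the 6 libraries. By its suffix, ssa-miR-200a-1-5p_2ss16TC17TA differs from the miRNA it is named for at bases 16 and 17. There it carries the C and A of ssa-miR-200a-2-5p, so its name alone does not set it apart from that row. The floor of 3 counts was reached by ssa-miR-200a-1-5p_2ss16TC17TA only in control replicate 3, with 4.5 counts. It was reached by ssa-miR-200a-3-5p only in control replicate 6, with 3 counts. Whether they come from separate trout genes was not tested.

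Other miRNAs known from epithelia were present at lower levels and followed another order over all libraries. Among the controls alone their summed levels ran as those of the family, highest in replicate 6 and lowest in replicate 4. The list of miR-203 and miR-205, miRNAs of skin and other stratified epithelia, with miR-31, had 13 rows in the table and none of miR-31. Its summed level was 49.0, 23.1 and 133 CPM in the controls and 98.9, 219 and 27.7 CPM after fasting. Fasted replicate 4 was the highest and control replicate 6 the next. Of its 3 tested rows, all of miR-203, 3 lay above 0 (median log2 fold change 0.55) and 0 were called. The largest, ssa-miR-203b-3p_L+1R-2, was at 1.29 on the log2 scale (SE 0.72, edgeR adjusted p = 0.606). Its fasted libraries spread widely, from 10.9 CPM in replicate 5 to 67.5 and 82.0 CPM in replicates 3 and 4. The main row of miR-205, fru-miR-205_R-1, had 28.5 counts in control replicate 3 and at most 10.25 elsewhere, too few for a test.

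The miR-183 cluster, of sensory epithelia, peaked in control replicate 6. Its miR-183, miR-96 and miR-182 rows summed to 16.3, 15.3 and 45.5 CPM in the controls and to 10.3, 20.6 and 15.3 CPM in the fasted libraries. In it dre-miR-182-5p_R+2 had 67 counts in control replicate 6 and 7 in control replicate 3. Its 1 tested row, dre-miR-183-5p, had 9.18, 7.33 and 17.6 CPM in the controls and 4.13, 10.1 and 4.86 CPM after fasting (log2 fold change -0.87, SE 0.54, edgeR adjusted p = 0.606), with overlapping groups. The other rows of these lists did not all peak there: fru-miR-96_R-1 had 6.71 CPM in control replicate 4 and 6.58 CPM in control replicate 6, and fru-miR-205_R-1 had 7.69 CPM in control replicate 3 and 3.21 CPM in control replicate 6. The part of other epithelial cells in the values of the family was not tested.

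The summed level of pancreatic miRNAs did not share the peak in control replicate 6. The rows of miR-375, miR-7, miR-216 and miR-217 summed to 221.8, 201 and 178 CPM in the controls and to 225, 206 and 278 CPM after fasting. Of their 6 tested rows 5 lay above 0 with TMM scaling (median log2 fold change 0.45), and 0 were called. The most abundant, dre-miR-375, was at 0.47. Its levels in the controls were 61.3, 53.7 and 92.5 CPM, in the control order of the miR-200 family. Among the controls alone, dre-miR-375 and ssa-miR-7a-3-3p_1ss22AC were highest in replicate 6, and the other tested rows of the list were lowest there.

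The lists of other cell types are given for comparison, as log2 fold changes with TMM scaling. The intestinal list had 5 of 9 tested rows above 0 (median 0.047), with ipu-miR-192 at -0.49 as its most abundant row. The hepatocyte list had 9 of 23 (median -0.20), with dre-miR-122_R-1 at -0.50. The intestinal and hepatocyte lists overlap, since both hold miR-192 and miR-194, and ipu-miR-192 counts in each. In both lists 0 rows were called, as were 0 of all 309 rows tested. The erythrocyte list had 3 of 4 rows above 0 (median 0.071), with dre-miR-451_R-1 at 0.18. The leucocyte list had 4 of 6 (median 0.28), with dre-miR-142a-5p at -0.011, and the endothelial and stromal list 6 of 21 (median -0.10), with dre-miR-199-5p at -0.70. Over all 309 rows 154 lay below 0 and the median was 0.012, and 0 rows of any list were called. Scaling by library totals alone moved the median of all rows to 0.59.

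**Figure D5:**
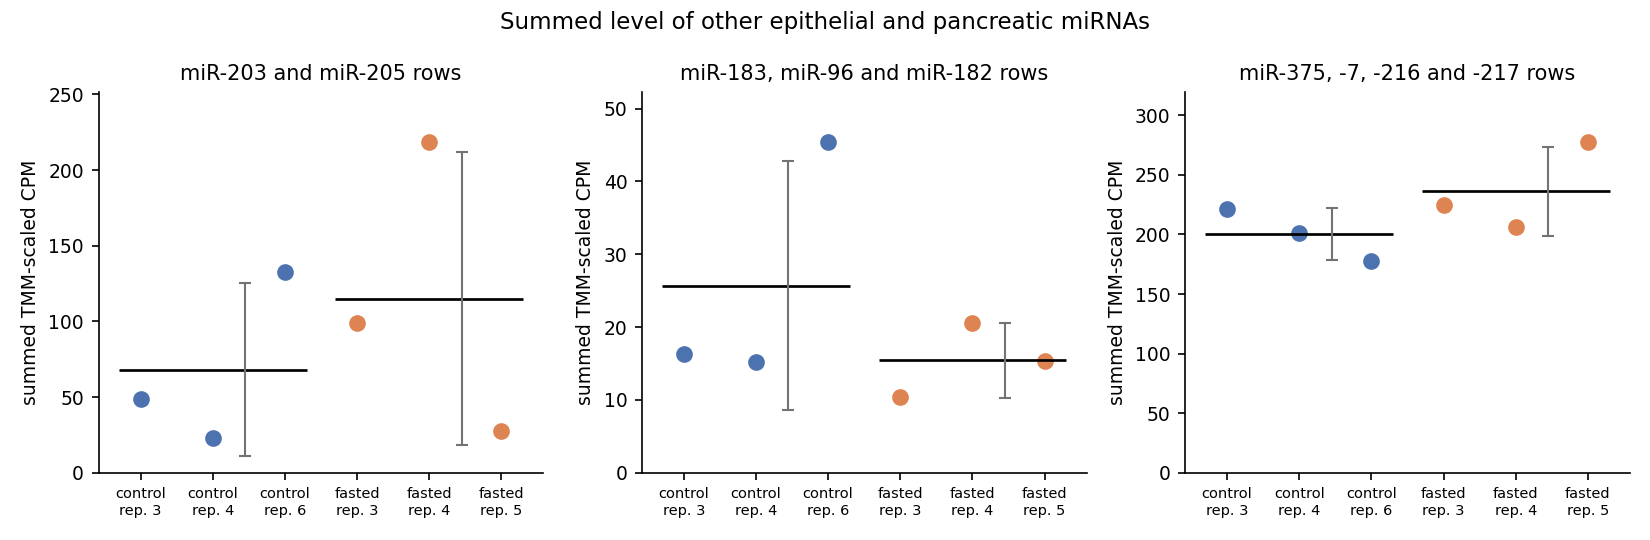
Summed TMM-scaled CPM of the rows of other epithelial miRNAs, of the miR-183 cluster and of pancreatic miRNAs in each library, with group means (black) and 1 SD (grey, n = 3). The miR-183 cluster is highest in control replicate 6 at 45.5 CPM, the miR-203 and miR-205 rows in fasted replicate 4 at 219 CPM, and the pancreatic rows in fasted replicate 5 at 278 CPM.

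The profile of miR-200a over the 6 libraries was compared with that of 277 other mature names. Likeness was measured as the root mean square difference of log2 CPM after centring each row on its own mean. The nearest were dre-miR-27b-5p_R-1 at 0.23, dre-miR-10c-5p at 0.24, ssa-miR-15a-3p at 0.24, dre-miR-27b-3p_R-1 at 0.28 and fru-miR-16_R-1_1ss17TC at 0.28. All 5 had their highest level in control replicate 6. They were picked for their likeness to miR-200a, which peaks there itself, so the shared peak is no separate result. Rows that vary little can also score as near: fru-miR-16_R-1_1ss17TC ran only from 1052 to 1396 CPM. The rows dre-miR-27b-5p_R-1, at 8.27 to 19.4 CPM, and ssa-miR-15a-3p, at 8.55 to 21.0 CPM, had few counts, so their profiles are uncertain. Within the family, miR-200b was the 13th nearest at 0.35, and miR-429a the 116th at 0.61, close to the median of 0.65. Members with too few counts for a test, the miR-141 row among them, were not compared, and all points share the same libraries and scaling.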

How the data were processed

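Small RNA of trout liver was sequenced on an Illumina GAIIx from Trizol RNA with a TruSeq kit, per the labels' protocols and design text. The deposited read summary holds counts of reads per library. The miRNA table holds expected counts, as deposited by the authors: between 14.4 and 20.8% per library are fractional (tolerance 1e-06), so similar rows may share reads and have uncertain single values. It also holds a signal that the authors made by dividing by a library size parameter of 0.506 to 2.30, per the file headers, with 0 written as 0.001. The submitters' processing notes name Bowtie 1.1.1; the counting program and build are not stated in the labels or file headers.

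Expected counts were rounded and tested with edgeR 4.0.16 (R 4.3.3; TMM scaling, quasi-likelihood F test, groups alone as the design) over all rows passing filterByExpr (minimum count 10, minimum total 15), with Benjamini-Hochberg adjustment over these 309 rows. DESeq2 1.42.0, limma 3.58.1, other scalings, no filter, summed names, known rows, a replicate block and each library left out were alternatives. Members are all rows matching the family names, case-sensitively. Members and lists were chosen with earlier results of these data known. All tested members were named, and outside the family the most abundant rows of the lists and the 5 nearest profiles. The fits were tested on simulated data. There edgeR recovered 8.46% of 2-fold changes and 87.7% of 4-fold changes, so a 2-fold change would mostly go uncalled. Most of the tested rows were changed in these simulations, which makes a given p easier to call after adjustment. The libraries themselves gave 0 calls, so the share for 4-fold changes does not carry over to them. In the libraries dre-miR-10b-5p_R-1, with a log2 fold change of -2.48, went uncalled (edgeR adjusted p = 0.245). No library was a duplicate by a chi-square test of counts, as the lowest value for any pair was 101 per degree of freedom.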

Additional observations from a re-analysis of the deposited data

Results flagged for a closer look

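A row outside the family's matched names had counts in fasted libraries and none in the controls. The row ccr-mir-200b-p3_2ss16TC18GA, written in the table with a lower-case mir, had 3 counts in fasted replicate 3, 0 in fasted replicate 4 and 5 in fasted replicate 5. It had 0 in each of the 3 control libraries, 2 of which were deeper than any fasted library. It was noticed because a count of 5 lies above the control level and above the floor of 3 counts. Its 20 bases begin with the last 13 bases of the miR-200b row. The difference between the groups was not tested. How many of all rows had counts in fasted libraries only was not counted, so how common this pattern is remains unknown. The other lower-case rows of the family went the other way at counts under the floor: tni-mir-200b-p3_1ss4CA had 0.667 counts and ola-mir-200a-p5_1ss14CT had 1, both in control replicate 3 and in no other library.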

How the results depend on the processing

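Of the 16 alternative settings, none called a member, and 13 called 0 rows in all, as with the reported settings. DESeq2 called 4 rows, edgeR without a filter on low counts called 11, and leaving out single libraries gave 0 to 1, the 1 without control replicate 3. The log2 fold change of miR-200a turned to 0.17 when scaled by library totals alone and to 0.018 with the replicate number as a block, and ran from -0.66 to -0.031 with single libraries left out. That of miR-200b turned to -0.039 without control replicate 4, reached 0.36 with another library left out, and otherwise lay between 0.034 and 0.80. The summed family level, -0.22 as a difference in mean log2 CPM, was 0.34 with the library total, where the median of all rows was 0.59. It ran from -0.46 to 0.083 with single libraries left out and lay between -0.18 and -0.093 in the remaining settings. The ratio of miR-200a to miR-200b ran from -0.69 to -0.39 with single libraries left out and was -0.41 in the replicate pairs, both chosen after seeing the data. Numbers 3 and 4 occur in both groups, but deviations of same-numbered libraries correlated at 0.44 and -0.035, and the labels name nothing that the numbers stand for, so the numbers were not used as pairs. In the block fit only the libraries numbered 3 and 4 bear on the difference between the groups. The block gave 0 calls, and 59 rows at an unadjusted p under 0.05 against 26 without it. Arm ratios were not tested for these miRNAs, by choice of a minimum level of 10 or 5 CPM that their 5p arms did not reach. Depth limits the 9 untested members, at most 42.5 counts each.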

Other observations

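A few members were length variants far from the usual ends, at counts near or under the floor. The row dre-miR-200a-3p_L+4, which starts 4 bases ahead of the usual start and so has the seed TCCTAAC, had 0.333 counts in control replicate 3 and 0.5 in fasted replicate 3. The row dre-miR-200b-3p_R+5, of 27 nt, had 0.667 counts in control replicate 3 and 2 in fasted replicate 3. The row ola-miR-200a_L+1R+8, also of 27 nt, had 0.333 counts in control replicate 3. All 3 rows were found in control replicate 3 and 2 of them in fasted replicate 3, and none in the other 4 libraries.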
